A study of Mus musculus with 10 samples.

Results

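The 10 genes described here are used to recognise or to sort stem-like carcinoma cells, and they were followed across 10 mouse mammary carcinoma lines: the efflux pump genes Abcg2, Abcb1a and Abcb1b, the aldehyde dehydrogenase genes Aldh1a1 and Aldh1a3, and the surface marker genes Cd44, Cd24a, Prom1, Ly6a and Procr. They were taken by name, and each of the 10 had an entry among the 55418 named genes of the gene table. RNA was sequenced once from each line. The metastasis lines 5, 3 and 7 were grown from lung metastases, the CTC lines 1, 3 and 6 from circulating tumour cells, and the primary lines 5, 7 and 8 from tumours of the fat pad, and each line is named here by its group and the number in its title. The 9 derived lines came out of NSG (NOD-SCID-GAMMA) mice, an immunodeficient strain, and per the labels all of them, the primary lines included, go back to CTCs of mice that carried 4T1-hHER2-Luc tumours. The parental line is 4T1-hHER2, labelled with the strain BALB/cfC3H, in which a lentivirus stably expresses human HER2 and luciferase, so that the derived lines descend from cells with the same insert. The labels give no age of the mice, no promoter of the insert, and neither whether a line is a clone or a pool nor what its number stands for. The 3 lines of a group are its replicates, the parental group has 1 library, so p-values here reflect no more than the spread among single libraries of these lines.

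Efflux pumps of the ABC family use ATP to move drugs and dyes out of the cell, and cells that expel a dye in this way form the side population from which stem-like cells are often sorted. Aldehyde dehydrogenases of class 1A make retinoic acid and are read by a fluorescent assay of enzyme activity. The surface proteins CD44, CD24, Sca-1 (the product of Ly6a) and the protein C receptor (the product of Procr) are among those used to sort mouse mammary and carcinoma cells, and in human tumours a high CD44 with a low CD24 is the usual sorting gate.

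The libraries held 79869760 to 97722716 estimated counts, of which entries assembled by the authors' processing and tied to no named gene took 19.7% to 22.8%. Reads of a gene that were counted under such an entry are missing from its level. The summed level of 6 mammary epithelial markers was 1205 to 2905 CPM (read counts scaled to a common library size) in metastasis, 1499 to 2666 CPM in CTC and 2068 to 3462 CPM in primary lines, and 1206 CPM in the parental line. The sum hides differences among the markers: Krt19 ran from 0.774 to 262 CPM, Epcam from 15.7 to 204 CPM and Krt7 from 73.8 to 1177 CPM over the libraries. In metastasis against primary their log2 changes ran from -3.41 (Krt19) to 0.42 (Krt8), and Epcam was lower without overlap (-1.99). None had an adjusted p under 0.05 (edgeR, Benjamini-Hochberg). The 6 blood cell markers summed to at most 0.232 CPM, and Tyrobp, Hbb-bs and Hba-a1 were at 0 in all 10 libraries. The 6 endothelial markers summed to at most 2.32 CPM, the 5 adipocyte markers to at most 0.316 CPM and the 6 lung epithelial markers to at most 4.80 CPM, with Emcn, Lep, Cidec and Sftpc at 0 throughout. The 6 fibroblast markers summed to 14.8 to 284 CPM in metastasis, 10.96 to 142 CPM in CTC and 5.07 to 62.0 CPM in primary lines, against 5.10 CPM in the parental line. Pdgfra alone reached 269 CPM while Col1a1 reached 2.32 CPM, and the part of this list in the results was not tested. Of all counts on named genes, mitochondrial ones made up 2.34% to 3.14% in metastasis lines and 1.07% to 2.22% in the others.

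Per length, the highest of the 10 genes was Cd24a, with 164 to 388 TPM (a level per transcript length) and a median of 283 TPM over the 10 libraries. Cd44 followed at 86.6 to 252 TPM, Procr at 20.6 to 92.9 TPM and Abcb1b at 14.1 to 44.9 TPM, and each of these ranges overlapped that of its neighbour. Abcb1a lay at 0.718 to 5.56 TPM and Abcg2 at 0.0338 to 12.8 TPM, so that the lowest Abcb1b level was above the highest level of either other pump. Ly6a reached 0.657 TPM, Aldh1a1 0.0955 TPM, Prom1 0.0515 TPM and Aldh1a3 0.0292 TPM. Of the 10 genes, 4 thus rested on at most 23 counts in every library.

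**Figure D1:**
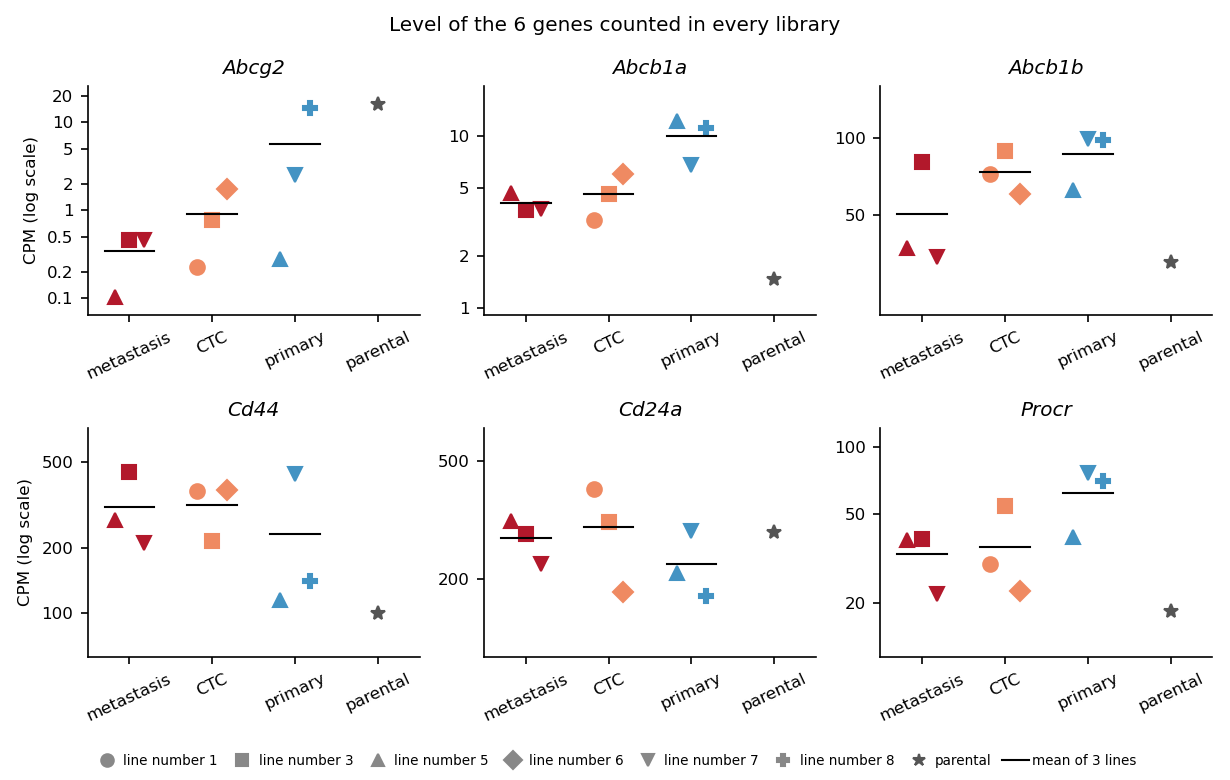
CPM of the 6 genes that had counts in every library, on a log scale, with 1 point per library, the point shape giving the line number and a bar the mean of 3 lines. Abcg2 spans 0.104 to 16.2 CPM, whereas Cd24a spans 176 to 402 CPM.

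Of the 10 genes, 7 passed the filter on low counts and entered the fit of 19936 genes, and Aldh1a1, Aldh1a3 and Prom1 did not. None of the 7 was called in any comparison (edgeR quasi-likelihood, Benjamini-Hochberg adjusted p under 0.05). The background was as low: metastasis against primary called 0% of all genes, CTC against primary 0%, metastasis against CTC 0.00502%, derived against parental 0.0201%, and any difference among the 3 derived groups 0%. At an unadjusted p under 0.05 the same edgeR test took 2 of the 7 in metastasis against primary (Abcg2 and Abcb1a; 8.29% of all genes), 1 in CTC against primary (Abcb1a; 4.06%) and 0 in metastasis against CTC (3.29%). It took Abcg2 and Abcb1a again in derived against parental (10.3% of all genes) and in any difference among the 3 derived groups (5.2%). DESeq2 with Benjamini-Hochberg adjustment called Abcb1a and Abcg2 in metastasis against primary and Abcb1a in derived against parental and in any difference. The same tool called 1.2%, 4.32% and 0.761% of the genes to which it gave an adjusted p in these 3 comparisons.

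The metastasis and primary lines did not overlap for 2 of the 7, Abcb1a and Procr, against 13.6% of all genes. CTC and primary lines did not overlap for 1, Abcb1a, against 7.15%, and metastasis and CTC lines for 0, against 8.28%. All 9 derived lines lay on 1 side of the parental line for 6 of the 7 genes, all but Cd24a, against 29.5% of all genes. Since the parental line is 1 library, a single unusual value there sets that count. The median log2 change of the 7 was -0.77 in metastasis against primary (0.01 over all genes), -0.80 in CTC against primary (-0.01), -0.12 in metastasis against CTC (0 over all genes) and 1.05 in derived against parental (0.10).

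**Figure D2:**
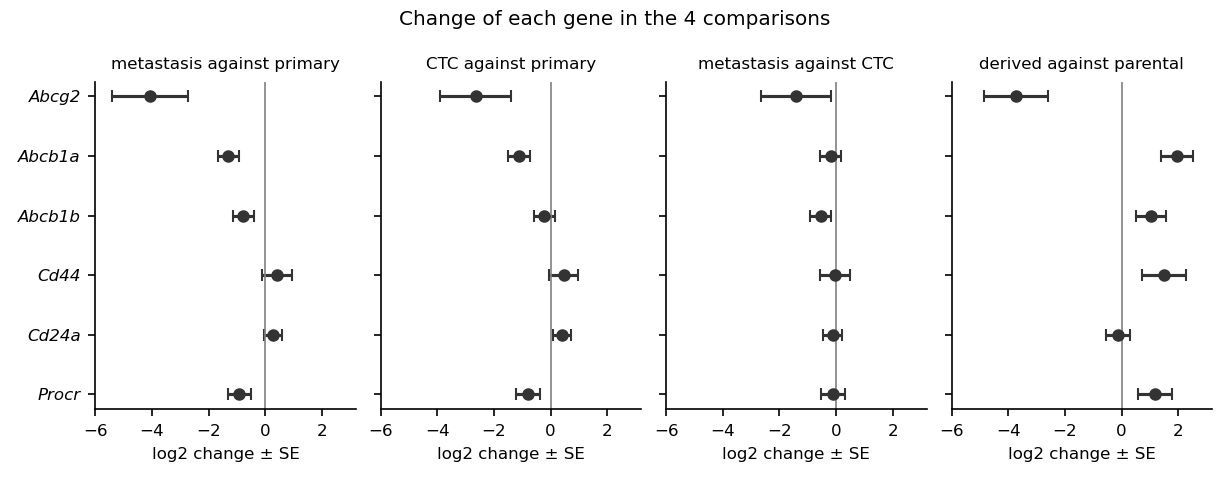
Log2 change ± SE of the same 6 genes in each of the 4 pairwise comparisons, from edgeR's fit of all genes. Abcg2 lies lowest in every panel (-4.06, -2.64, -1.42 and -3.73), and Abcb1a, Abcb1b, Cd44 and Procr lie above 0 in derived against parental.

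Abcg2 encodes the breast cancer resistance protein, the pump that makes the side population in many tissues, and it lies on chromosome 6 from 58584523 to 58695676 of GRCm38, on the plus strand. Its models begin at several places, and 2 of these carried nearly all counts. Abcg2-201 begins at 58596671, called the upstream start here, and 6 models begin between 58640546 and 58640582, called the downstream starts. Abcg2-201 and Abcg2-202, the main model of the downstream starts, both encode 657 residues. The 250 bases before each start are shown because the lines differed in which of the models that begin there took the counts. They are from RefSeq on GRCm38.p6, plus strand, chr6:58640296-58640545 for the downstream and chr6:58596422-58596671 for the upstream start, with GC boxes (GGGCGG on either strand) and a cAMP response element (TGACGTCA) in capitals.
Abcg2 downstream start: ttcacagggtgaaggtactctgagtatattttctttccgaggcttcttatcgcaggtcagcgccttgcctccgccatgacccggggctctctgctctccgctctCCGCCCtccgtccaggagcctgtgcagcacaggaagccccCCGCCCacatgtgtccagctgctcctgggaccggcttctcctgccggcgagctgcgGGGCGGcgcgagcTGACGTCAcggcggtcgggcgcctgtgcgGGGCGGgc
Abcg2 upstream start: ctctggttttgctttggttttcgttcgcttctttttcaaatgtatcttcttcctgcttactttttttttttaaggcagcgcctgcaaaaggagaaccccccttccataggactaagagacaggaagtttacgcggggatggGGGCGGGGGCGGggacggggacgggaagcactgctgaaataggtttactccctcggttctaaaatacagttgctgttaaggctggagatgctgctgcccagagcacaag
The downstream window had 67.6% G and C, 23 CpG, 4 GC boxes and 1 cAMP response element. The upstream window had 50% G and C, 10 CpG, 2 GC boxes, which abut, and no match to the cAMP response element. Over 32851 RefSeq promoter windows of the same length the median was 52.4% G and C with 6 CpG, 32.7% held a GC box and 1.55% a cAMP response element. Neither Abcg2 window held TATAAA (12.4% of all windows), CCAAT (33.8%), the xenobiotic response core GCGTG (28.2%) or the antioxidant motif TGACNNNGC (10.2%), on either strand, and a match is a description of letters only.

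Abcg2 was at 0.104 CPM in metastasis 5, 0.458 CPM in metastasis 3 and 0.464 CPM in metastasis 7. It was at 0.227, 0.774 and 1.75 CPM in CTC 1, 3 and 6, at 0.279, 2.54 and 14.4 CPM in primary 5, 7 and 8, and at 16.2 CPM in the parental line. Every derived line was below the parental line, primary 8 nearly reached it, and primary 5 lay among the metastasis and CTC lines. The range over the 10 libraries was 155-fold, the lowest value resting on 8 counts (exact Clopper-Pearson 95% interval 0.0449 to 0.205 CPM, which covers counting error only). In bulk RNA, fewer cells with Abcg2 and less Abcg2 RNA in each cell cannot be told apart.

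The metastasis lines averaged 0.342 ± 0.206 CPM of Abcg2, the CTC lines 0.918 ± 0.774 CPM and the primary lines 5.73 ± 7.56 CPM (SD, n = 3 each). In metastasis against primary the log2 change was -4.06 (SE 1.34, edgeR, Benjamini-Hochberg adjusted p = 0.594), with overlapping groups. CTC against primary gave -2.64 (SE 1.258) and metastasis against CTC -1.42 (SE 1.23), both not called. Derived against parental gave -3.73 (SE 1.14, edgeR, Benjamini-Hochberg adjusted p = 0.451), lower in 9 of 9 lines. One library weighed on these values: without primary 8 the log2 change was -2.02 in metastasis against primary and -0.61 in CTC against primary. Without CTC 6 it was -0.54 in metastasis against CTC. In metastasis against primary DESeq2 gave -4.06 with an adjusted p of 0.0370 (Benjamini-Hochberg), and limma-voom -2.93, not called. With the line number as a block the log2 change was -1.98 as a fixed block and -2.37 as a random block, neither called.

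The transcript models of Abcg2 divided the lines along the order of its level. The libraries with counts on the upstream start were those with the lowest levels, 0.104 to 0.464 CPM. Those with counts on the downstream starts had the highest, 0.774 to 16.2 CPM. The model assigned and a low Abcg2 count thus cannot be told apart here. The models with the downstream starts held 1135 of 1142 Abcg2 counts in the parental line (99.4%), 192 of 193 in primary 7 (99.5%), 1043 of 1045 in primary 8 (99.8%), 49 of 50 in CTC 3 (98.0%) and 113 of 115 in CTC 6 (98.3%). In the other 5 lines they held 0. The model with the upstream start, Abcg2-201, held 8 of 8 counts in metastasis 5, 33 of 35 in metastasis 3 (94.3%) and 34 of 34 in metastasis 7, 16 of 17 in CTC 1 (94.1%), and 17 of 20 in primary 5 (85.0%), and 0 in the 5 libraries with counts on the downstream models. No library held counts of both kinds, and counts were assigned to Abcg2-201 in all 3 metastasis lines, in 1 of 3 CTC lines and in 1 of 3 primary lines. Same-numbered lines both had Abcg2-201 counts for number 5 and differed for numbers 3 and 7.

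These counts are small, and a count of 0 allowed a downstream share of up to 36.9% in metastasis 5, 10.003% in metastasis 3, 10.3% in metastasis 7, 19.5% in CTC 1 and 16.8% in primary 5 (exact Clopper-Pearson 95% intervals, counting error only). Reads are shared out among models by estimation, and Abcg2-201 has 3111 bases of its 5717 in no other model, its long 3' end included. Whether the counts given to it came from its first exon or from its 3' end cannot be told apart in these tables, so which start was used was not measured. Within the downstream models, Abcg2-202 held 1122 counts in the parental line, 187 in primary 7 and 1035 in primary 8, but 0 in CTC 3 and CTC 6. There Abcg2-206, annotated as a target of nonsense-mediated decay, held 32 and 106. Of their bases, 0 of Abcg2-202 and 16 of Abcg2-206 lie in no other Abcg2 model. Which of these 2 forms was present was thus not measured either. None of the 27 tested transcripts of the 10 genes passed edgeR's Benjamini-Hochberg threshold in any comparison. Over all 61244 tested transcripts, 0.0408% passed in derived against parental and 0% in each other comparison.

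**Figure D3:**
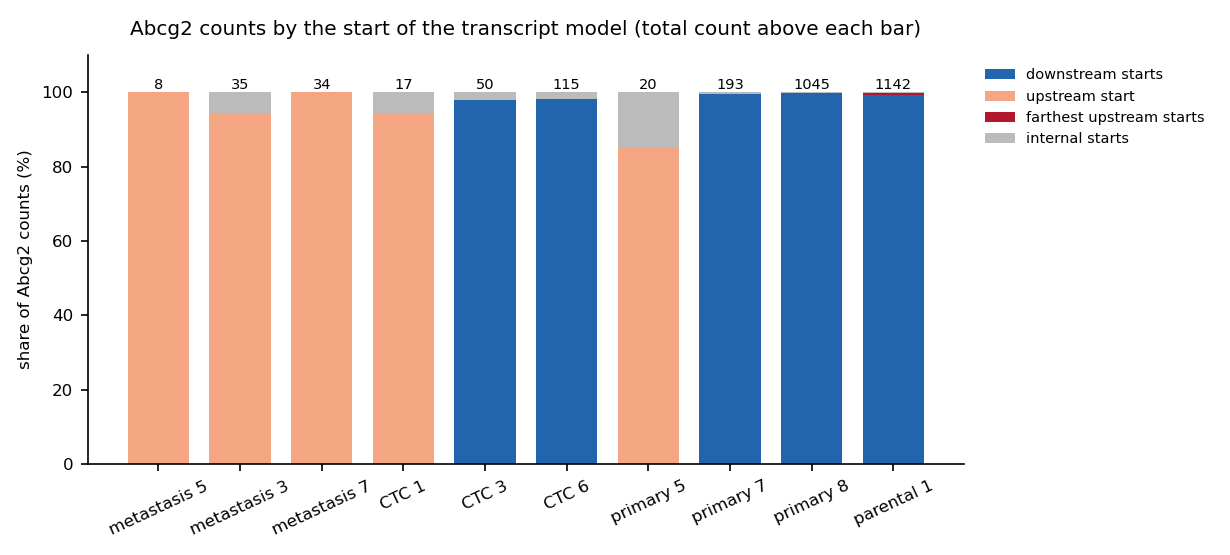
Share of Abcg2 counts (%) by the place where the transcript model begins, 1 bar per library, with the total Abcg2 count above each bar. In the 3 metastasis lines, CTC 1 and primary 5 the counts were assigned to the model with the upstream start (85.0% to 100%), and in the other 5 libraries to models with the downstream starts (98.0% to 99.8%).

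Abcb1a and Abcb1b encode the 2 mouse forms of P-glycoprotein, the multidrug resistance pump that in humans comes from a single gene. They lie side by side on the plus strand of chromosome 5, Abcb1a from 8660077 to 8748575 and Abcb1b from 8798147 to 8866315 of GRCm38. Abcb1a was at 4.65, 3.72 and 3.78 CPM in metastasis 5, 3 and 7, at 3.24, 4.57 and 5.99 CPM in CTC 1, 3 and 6, and at 12.1, 6.79 and 11.1 CPM in primary 5, 7 and 8. The parental line had 1.47 CPM. The 3 primary lines were the 3 highest, the parental line was the lowest, and the metastasis and CTC lines overlapped in between.

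The metastasis lines averaged 4.05 ± 0.519 CPM of Abcb1a, the CTC lines 4.60 ± 1.38 CPM and the primary lines 9.98 ± 2.81 CPM (SD, n = 3 each). Metastasis against primary gave a log2 change of -1.30 (SE 0.38, edgeR, Benjamini-Hochberg adjusted p = 0.594), lower in 3 of 3 lines than in any primary line. CTC against primary gave -1.12 (SE 0.38, edgeR, Benjamini-Hochberg adjusted p = 0.994), again with groups apart, and metastasis against CTC gave -0.18 (SE 0.37). Derived against parental gave 1.95 (SE 0.57, edgeR, Benjamini-Hochberg adjusted p = 0.451), higher in 9 of 9 lines. DESeq2 with Benjamini-Hochberg adjustment gave close log2 changes with smaller adjusted p, 0.0359 in metastasis against primary, 0.00446 in derived against parental and 0.0443 for any difference, where it called 187, 673 and 139 genes in all. The full-length model Abcb1a-201 held 352, 229 and 239 counts in metastasis 5, 3 and 7, 240, 255 and 218 counts in CTC 1, 3 and 6, 759, 366 and 572 counts in primary 5, 7 and 8, and 99 counts in the parental line. These counts are not scaled to library size, and primary 7 was nearly level with metastasis 5. Abcb1a-202, annotated with a retained intron, took 12.2%, 28.7% and 28.7% of Abcb1a counts in primary 5, 7 and 8. Elsewhere its share ran from 0.412% in CTC 1 to 44.0% in CTC 6. For Abcb1a-201 alone, metastasis against primary gave a log2 change of -1.21 (SE 0.47), not called.

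Abcb1b was the more abundant form, and its lines overlapped more. It was at 37.4, 80.3 and 34.6 CPM in metastasis 5, 3 and 7, at 72.5, 88.4 and 60.3 CPM in CTC 1, 3 and 6, at 62.5, 98.9 and 97.8 CPM in primary 5, 7 and 8, and at 33.1 CPM in the parental line. The parental line was again lowest, metastasis 7 and metastasis 5 were close to it, and metastasis 3 lay among the CTC and primary lines. The log2 change was -0.77 (SE 0.37) in metastasis against primary, -0.23 (SE 0.37) in CTC against primary, -0.54 (SE 0.37) in metastasis against CTC and 1.05 (SE 0.52) in derived against parental, none called. Without metastasis 3 it was -1.26 in metastasis against primary and -1.04 in metastasis against CTC, and without metastasis 7 it was -0.33 in metastasis against CTC, again not called. The ratio of Abcb1b to Abcb1a in TPM was 8.61, 22.3 and 8.80 in metastasis 5, 3 and 7, 22.6, 20.4 and 8.77 in CTC 1, 3 and 6, 5.49, 13.4 and 8.18 in primary 5, 7 and 8, and 19.6 in the parental line. Abcb1b led in every library, and the groups overlapped.

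The 2 genes are close copies: Abcb1a-201 and Abcb1b-201 were identical at 87.1% of 4297 aligned bases, and 11.4% of the 75-base windows of Abcb1a-201 and 12.6% of those of Abcb1b-201 also occurred in the other or in Abcb4. Counts could be split between them, and Abcb1a, the rarer, is the more exposed. Summed as 1 gene, they gave a log2 change of -0.81 in metastasis against primary, -0.30 in CTC against primary and 1.11 in derived against parental. Abcb1b held 48094 counts over the libraries and Abcb1a 4141, so the sum follows Abcb1b. It cannot show whether reads of Abcb1a were split wrongly. Among the alternatives the sum was set against each of the 2 genes. Abcb1a also shares 553 exonic bases with the antisense gene Gm42686 and Abcb1b 143 with the antisense gene Gm5106, and whether counting used strand is not stated in the labels.

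Aldh1a1 and Aldh1a3, the enzymes most often held to account for the activity that is sorted in mammary cells, were hardly counted. Aldh1a1 (chromosome 19, 20492715 to 20643465) had 8 counts in primary 7 and 0 in the other 9 libraries. Aldh1a3 (chromosome 7, 66390890 to 66427517, minus strand) had 3 counts in metastasis 3, 4 in metastasis 7 and 4 in the parental line, and 0 elsewhere. The limit that a count of 0 allows, 3 counts, was worth 0.0390 to 0.0465 CPM, so a library at 0 may still hold a level up to this. Prom1 encodes CD133, a membrane protein used to sort stem-like cells in several tumours, and it had 8 counts in primary 7, 6 in primary 8 and 0 in the other 8 libraries. Primary 7 thus held all Aldh1a1 counts and 8 of the 14 Prom1 counts. Prom1 (chromosome 5, 43993620 to 44102032, minus strand) shares 424 exonic bases with the antisense gene Gm16401, and 2.19% of the windows of Aldh1a1 occur in Aldh1a7.

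Ly6a, which encodes Sca-1 and lies on chromosome 15 from 74994877 to 74998031 on the minus strand, had 1, 0 and 17 counts in metastasis 5, 3 and 7, and 3, 3 and 0 counts in CTC 1, 3 and 6. It had 6, 5 and 3 counts in primary 5, 7 and 8 and 23 counts in the parental line, its highest level, at 0.326 CPM. Metastasis 7, at 0.232 CPM, was the derived line nearest to the parental line, and the derived groups overlapped. Derived against parental gave a log2 change of -2.57 (SE 1.52), lower in 9 of 9 lines and not called by edgeR, and -3.68 without metastasis 7. Metastasis against primary gave 0.35 (SE 1.49), which turned to -2.98 without metastasis 7.

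Cd44 encodes the main receptor for hyaluronan and lies on chromosome 2 from 102811141 to 102901665 of GRCm38, on the minus strand. Its 10 variable exons are spliced in or out between constant ones: the standard form has none of them, and forms with variable exons differ in the part of the protein just outside the membrane. The junctions that set the 2 leading models apart are shown from GENCODE M21 on GRCm38, minus strand, with the last 20 bases of the shared exon (chr2:102853015-102853034) in lower case and the first 20 of the next exon in capitals. In Cd44-201, which holds all 10, that is the first variable exon (chr2:102848763-102848782). In Cd44-203, the standard form, it is the constant exon that follows them (chr2:102828591-102828610).
Cd44-201: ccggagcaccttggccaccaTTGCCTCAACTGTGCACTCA
Cd44-203: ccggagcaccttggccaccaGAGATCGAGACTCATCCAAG
Cd44-201 encodes 780 residues and Cd44-203 encodes 365.

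At gene level Cd44 was at 270.2, 450.4 and 212 CPM in metastasis 5, 3 and 7, at 368, 217 and 370.5 CPM in CTC 1, 3 and 6, at 115, 439 and 141 CPM in primary 5, 7 and 8, and at 101 CPM in the parental line. All 9 derived lines were above the parental line, primary 5 and primary 8 by the least, and the 3 derived groups overlapped. The metastasis lines averaged 311 ± 124 CPM, the CTC lines 318 ± 88.0 CPM and the primary lines 232 ± 180.1 CPM (SD, n = 3 each). Derived against parental gave a log2 change of 1.498 (SE 0.77, edgeR, Benjamini-Hochberg adjusted p = 0.509). The log2 change was 0.43 (SE 0.52) in metastasis against primary, 0.46 (SE 0.53) in CTC against primary and -0.03 (SE 0.52) in metastasis against CTC, none called. Without primary 7 it was 1.29 in metastasis against primary and 1.32 in CTC against primary, and neither was called.

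The share of Cd44 counts given to Cd44-201 was either large or close to 0. It was 41.7%, 39.3% and 50.3% in metastasis 5, 3 and 7, 41.4%, 0.236% and 42.0% in CTC 1, 3 and 6, 0.268%, 62.4% and 0.185% in primary 5, 7 and 8, and 0.366% in the parental line. A large share was thus assigned to this model in the 3 metastasis lines, CTC 1, CTC 6 and primary 7, and next to none in primary 5, primary 8, CTC 3 and the parental line, at 19 to 33 counts each. Exact Clopper-Pearson 95% intervals ran from 38.8% to 39.9% for the lowest of the large shares and from 0.239% to 0.536% for the highest of the small ones.

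The standard form Cd44-203 took 37.2%, 59.0% and 17.4% in metastasis 5, 3 and 7, 44.3%, 85.3% and 46.3% in CTC 1, 3 and 6, 64.0%, 4.68% and 69.9% in primary 5, 7 and 8, and 45.9% in the parental line. CTC 3 stood highest and primary 7 lowest. Counted per length over the models with an exon span, the models to which Cd44 counts were assigned held on average 3.22, 2.57 and 4.56 variable exons in metastasis 5, 3 and 7, 3.31, 0.704 and 2.93 in CTC 1, 3 and 6, 1.55, 5.79 and 1.29 in primary 5, 7 and 8, and 1.68 in the parental line. The groups overlapped in both measures. Cd44-201 has 369 bases in no other model. Cd44-201 and Cd44-207 together cover 1913 bases that the other models lack, these 369 included. Part of the 1913 is a distal 3' end that both share. Reads from that end and reads from variable exons cannot be told apart in these tables.

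**Figure D4:**
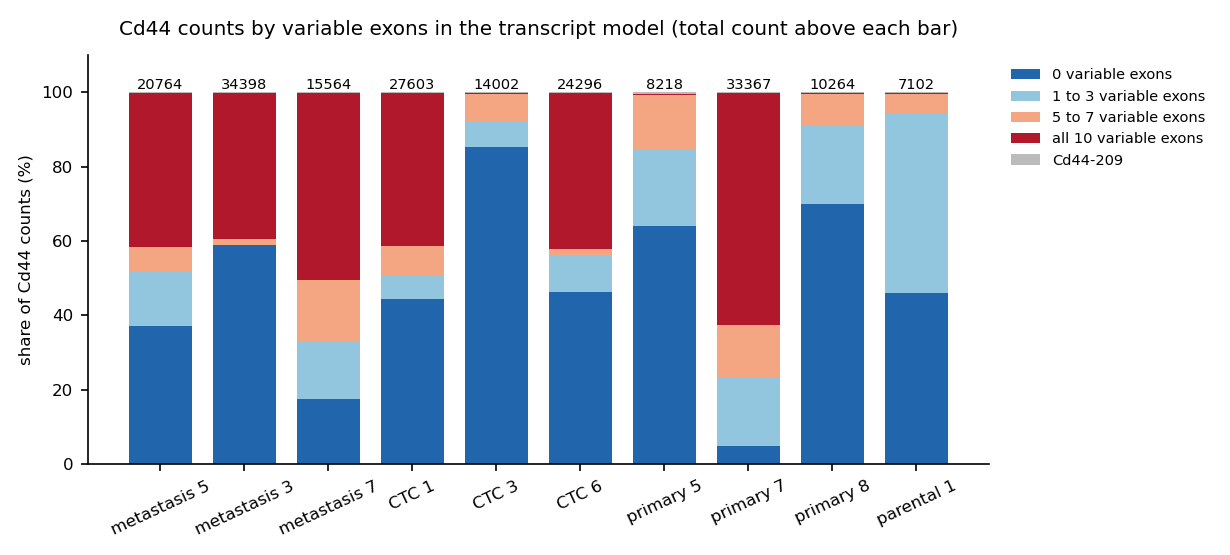
Share of Cd44 counts (%) by the number of variable exons in the transcript model, 1 bar per library, with the total Cd44 count above each bar. The model with all 10 variable exons takes 39.3% to 62.4% in 6 lines and 0.185% to 0.366% in the other 4 libraries.

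Cd24a encodes the small mucin-like anchor protein CD24, which mammary luminal cells carry, and lies on chromosome 10 from 43578284 to 43584265. It was at 314, 284 and 226 CPM in metastasis 5, 3 and 7, at 402, 312 and 181 CPM in CTC 1, 3 and 6, at 209.5, 291 and 176 CPM in primary 5, 7 and 8, and at 289 CPM in the parental line. The groups overlapped in all comparisons, and its range of 2.28-fold was the narrowest of the 6 genes counted in every library. Its SD over the libraries (log2 CPM) was larger than that of 31.2% of 11311 genes with a mean log2 CPM of at least 1. The log2 change was 0.28 (SE 0.33) in metastasis against primary, 0.40 (SE 0.33) in CTC against primary, -0.12 (SE 0.33) in metastasis against CTC and -0.13 (SE 0.42) in derived against parental, none called.

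The ratio of Cd44 to Cd24a, in TPM, was 0.502, 0.801 and 0.505 in metastasis 5, 3 and 7, 0.513, 0.476 and 1.13 in CTC 1, 3 and 6, 0.418, 0.832 and 0.614 in primary 5, 7 and 8, and 0.323 in the parental line. It averaged 0.603 ± 0.172 in metastasis, 0.707 ± 0.369 in CTC and 0.621 ± 0.207 in primary lines (SD, n = 3 each). The parental line had the lowest ratio, and CTC 6 was the only line above 1. The derived groups overlapped, and no test was run on the ratio.

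**Figure D5:**
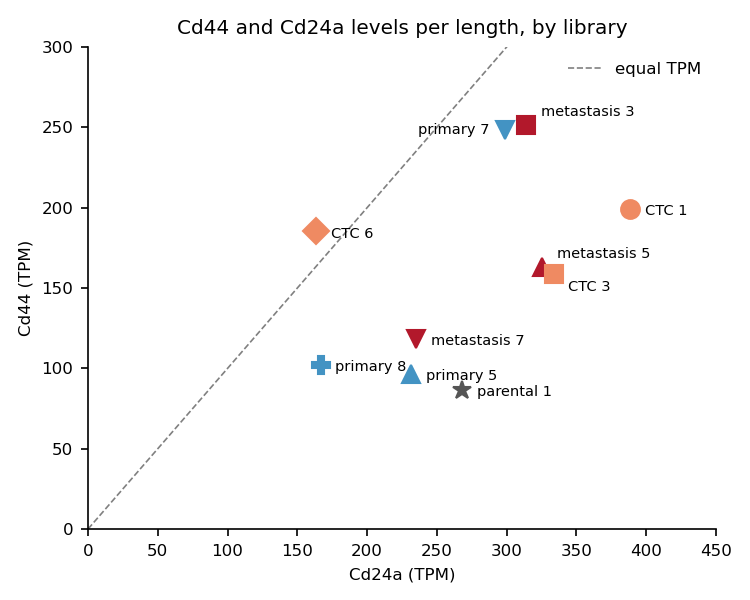
Cd44 against Cd24a in TPM, 1 point per library with the colour giving the group, and a dashed line of equal TPM. CTC 6 alone lies above the line (ratio 1.13), and the parental line has the lowest ratio (0.323).

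Procr encodes the endothelial protein C receptor, which also marks a multipotent population of the mouse mammary gland, and lies on chromosome 2 from 155751117 to 155755471. It was at 38.3, 38.9 and 21.9 CPM in metastasis 5, 3 and 7, at 29.9, 54.7 and 22.6 CPM in CTC 1, 3 and 6, at 39.4, 76.3 and 70.7 CPM in primary 5, 7 and 8, and at 18.4 CPM in the parental line. The metastasis lines were all below the primary lines, but metastasis 3 and primary 5 were nearly level, and the parental line was lowest. The metastasis lines averaged 33.0 ± 9.62 CPM, the CTC lines 35.7 ± 16.9 CPM and the primary lines 62.1 ± 19.9 CPM (SD, n = 3 each). The log2 change was -0.91 in metastasis against primary (SE 0.42, edgeR, Benjamini-Hochberg adjusted p = 0.594), -0.80 (SE 0.42) in CTC against primary and -0.11 (SE 0.41) in metastasis against CTC. Without CTC 3 it was -1.24 in CTC against primary, not called. Derived against parental gave 1.19 (SE 0.59), higher in 9 of 9 lines and not called.

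Across the 10 libraries, likeness of 2 genes was measured as the root mean square difference of their standardised log2 CPM, for which the median over 10256 genes was about 1.33. Among the 5 genes with a mean log2 CPM of at least 1, Abcb1b and Procr were the most alike (0.608), then Abcb1a and Procr (0.801) and Abcb1a and Abcb1b (0.899), and every other pair was at 1.07 or more. The genes most like them outside the set were Rpusd3 (0.313) and Ddx51 (0.392) for Abcb1a, Impa2 (0.282) and Grk6 (0.302) for Abcb1b, and Cdc42bpg (0.360) and Gprc5a (0.362) for Procr. For Cd24a they were Gna11 (0.332) and Wbp2 (0.378), and for Cd44, which had no gene as close, Rcor2 (0.525) and Hnrnpdl (0.575). These values describe 10 libraries and carry no test.

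Other genes around the 10 were read from 9 lists, and no gene of any list passed edgeR's Benjamini-Hochberg threshold in any comparison. The genes named were chosen partly for a small p among the derived groups, which favours groups that do not overlap. Over all genes, groups did not overlap for 13.6% in metastasis against primary and 7.15% in CTC against primary. The share was 8.28% in metastasis against CTC and 29.5% in derived against parental. Counts are given as higher and lower genes with the median log2 change, for which the medians over all genes were 0.01 in metastasis against primary, -0.01 in CTC against primary, 0 in metastasis against CTC and 0.10 in derived against parental. Of 16 tested ABC transporter genes, 8 were higher and 8 lower in metastasis against primary (0.04), 6 and 10 in CTC against primary (-0.38), 11 and 5 in metastasis against CTC (0.17) and 12 and 4 in derived against parental (0.45, or 0.40 with genes at 0 in a group set to their bound). Abcc1, the multidrug resistance-associated pump MRP1, was at 59.8 to 79.0 CPM in metastasis, 60.2 to 70.0 CPM in CTC and 74.4 to 153 CPM in primary lines, against 90.6 CPM in the parental line, so that CTC and primary lines did not overlap (log2 change -0.72, SE 0.30, not called). Abca3, a lipid transporter, was at 61.3 to 127 CPM over all libraries, with overlapping groups. Abca2 was at 29.7 to 70.3 CPM in CTC and 15.4 to 27.5 CPM in primary lines, without overlap (log2 change 1.00, SE 0.41, not called). Its metastasis lines, at 20.2 to 31.9 CPM, overlapped both, and the parental line had 38.6 CPM.

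Of 9 tested xenobiotic response genes, 8 were higher and 1 lower in metastasis against primary (0.64), 8 and 1 in CTC against primary (0.49), 5 and 4 in metastasis against CTC (0.00159) and 8 and 1 in derived against parental (1.72). Ahr, the dioxin receptor, was at 37.6 to 151 CPM in metastasis, 26.1 to 89.1 CPM in CTC and 24.3 to 58.1 CPM in primary lines, against 18.7 CPM in the parental line, which lay below all 9. Hif1a, the hypoxia factor, was at 287 to 405 CPM in the derived lines and 252 CPM in the parental line. Nfe2l2, which encodes the antioxidant factor NRF2, was at 127 to 277 CPM over all libraries, and Keap1, its inhibitor, was at 95.6 to 122 CPM in metastasis and 41.9 to 86.2 CPM in primary lines, without overlap and not called. The CTC lines had 67.7 to 149 CPM of Keap1, overlapping both, and the parental line 64.6 CPM.

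Of 14 tested aldehyde dehydrogenases, 7 were higher and 7 lower in metastasis against primary (0.02), 8 and 6 in CTC against primary (0.24), 8 and 6 in metastasis against CTC (0.03) and 11 and 3 in derived against parental (0.73). Aldh2, the mitochondrial enzyme that clears acetaldehyde, was the most abundant, at 96.0 to 628 CPM in metastasis, 213 to 683 CPM in CTC and 313 to 545 CPM in primary lines, against 159 CPM in the parental line. Aldh18a1, an enzyme of proline synthesis, was at 137 to 238 CPM in metastasis and 262 to 322 CPM in primary lines, without overlap. The CTC lines, at 100 to 311 CPM, overlapped both, and the parental line had 201 CPM. Aldh6a1, an enzyme of valine breakdown, was at 16.5 to 45.1 CPM in metastasis and 4.52 to 14.1 CPM in primary lines, also without overlap (log2 change 1.85, SE 0.75, not called). Its CTC lines, at 4.91 to 37.2 CPM, overlapped both, and the parental line had 5.79 CPM.

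Of 11 tested genes of the retinoic acid pathway, 10 were higher and 1 lower in metastasis against primary (0.42), 8 and 3 in CTC against primary (0.19), 8 and 3 in metastasis against CTC (0.14) and 11 and 0 in derived against parental (1.79). Dhrs3, a retinaldehyde reductase, was at 7.06 to 10.1 CPM in metastasis, 0.884 to 8.79 CPM in CTC and 0.687 to 3.67 CPM in primary lines, against 0.425 CPM in the parental line, which lay below all 9. The receptor genes Rxrb and Rxra, at 52.7 to 105 CPM and 34.3 to 98.7 CPM over all libraries, were the most abundant of the list. Rxra was at 89.3 to 97.5 CPM in metastasis and 34.3 to 87.0 CPM in primary lines, without overlap and not called. The CTC lines, at 70.1 to 98.7 CPM, overlapped both, and the parental line had 71.4 CPM.

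Of 11 tested genes of hyaluronan and CD44 partners, 4 were higher and 7 lower in metastasis against primary (-0.14), 4 and 7 in CTC against primary (-0.04), 2 and 9 in metastasis against CTC (-0.13) and 5 and 6 in derived against parental (-0.22). Hmmr, a hyaluronan receptor that also serves the mitotic spindle, was at 25.6 to 77.8 CPM in metastasis, 92.9 to 143 CPM in CTC and 109 to 136 CPM in primary lines, so that the metastasis lines lay below both other derived groups (not called). The parental line, at 46.3 CPM, lay within the metastasis range. Msn and Ezr, which tie CD44 to the actin cortex, were at 468 to 2184 CPM and 242 to 589 CPM over all libraries, with overlapping groups.

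Of 9 tested surface markers from other sorting schemes, 3 were higher and 6 lower in metastasis against primary (-0.17), 5 and 4 in CTC against primary (0.13), 5 and 4 in metastasis against CTC (0.08) and 6 and 3 in derived against parental (0.96). Itgb1, the integrin chain that marks basal mammary cells, was at 346 to 1498 CPM in the derived lines and 1850.3 CPM in the parental line, above all 9. The tetraspanin gene Cd9 was at 155 to 810 CPM in the derived lines and 129 CPM in the parental line, below all 9. Bst1 was at 0.477 to 1.49 CPM in metastasis and 0.934 to 9.97 CPM in primary lines, which overlapped.

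Of 7 tested genes of the protein C pathway, 5 were higher and 2 lower in metastasis against primary (0.71), 3 and 4 in CTC against primary (-0.30, or 0.14 with bounds), 3 and 4 in metastasis against CTC (-0.09) and 6 and 1 in derived against parental (1.77, or 1.20 with bounds). F2r and F2rl1, the protease-activated receptors, were at 81.9 to 311 CPM and 6.26 to 37.4 CPM over all libraries, and F3, tissue factor, at 2.88 to 31.2 CPM, all with overlapping groups. Thbd, thrombomodulin, was at 0.182 to 0.573 CPM in metastasis lines, 0 in CTC lines and at most 0.0137 CPM in primary lines, and it was listed at 0 in the parental line, so that the metastasis lines lay above all other libraries at very low levels (not called).

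Of 5 tested stem cell transcription factor genes, 1 was higher and 4 lower in metastasis against primary (-0.31), 1 and 4 in CTC against primary (-0.41), 2 and 3 in metastasis against CTC (-0.29) and 2 and 3 in derived against parental (-0.07). Myc was at 182 to 674 CPM in metastasis, 202 to 1436 CPM in CTC and 408 to 1738 CPM in primary lines, against 1579 CPM in the parental line. Sox9 was at 67.5 to 227 CPM over all libraries, and Snai2 reached 0.255 CPM, in the parental line. Of 3 tested Ly6 genes other than Ly6a, 1 was higher and 2 lower in metastasis against primary (-0.54), 1 and 2 in CTC against primary (-1.29), 3 and 0 in metastasis against CTC (0.74) and 3 and 0 in derived against parental (4.30, or 1.35 with bounds). Ly6e was at 24.2 to 60.5 CPM in metastasis, 14.5 to 33.3 CPM in CTC and 20.05 to 108 CPM in primary lines, against 26.2 CPM in the parental line, while Ly6c1 was at 0.0390 to 0.123 CPM in metastasis, 0 in CTC and 0.181 to 0.426 CPM in primary lines, and at 0 in the parental line, so that the 3 derived groups did not overlap at these very low levels (not called).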

How the data were processed

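Poly(A) RNA of 10 lines was sequenced in pairs of reads on an Illumina HiSeq, per the labels' protocols. The submitters' processing notes name HISAT2 2.1.0, StringTie 2.0.3 and DESeq2 1.26.0 with GRCm38. The authors deposited 1 table of estimated counts per gene and 1 per transcript, whole numbers not scaled to library size. No source used here names the annotation release. StringTie shares reads among overlapping models, so a count of a transcript is an estimate.

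Named genes that passed edgeR's filterByExpr (19936 of 55418) were tested with edgeR 4.0.16 (R 4.3.3): TMM factors, 1 quasi-likelihood fit of 4 groups over 10 libraries, Benjamini-Hochberg adjustment at 0.05. Transcripts were tested in the same way. Each SE was taken from the log2 change and its F statistic. CPM use TMM factors. TPM were computed from transcript counts and GENCODE M21 lengths, for levels between genes. Intervals are 95% and cover counting error only. The fit was run on simulated counts, where a set recovery was required only at a spread far below that of these data. The share of true changes it can find at the spread of these data is not given here. Biopython 1.88 aligned the 2 Abcb1 transcripts. Promoter windows came from RefSeq (GRCm38.p6), where 7 of the 10 genes were matched.

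The 10 genes and the lists were chosen with earlier results of these data known. From each list the text names the 2 most abundant tested genes and the 2 with the smallest p for any difference among the derived groups, except 1 gene that is not reported here. Likeness named the 2 closest genes. Alternatives were other scalings, no filter, a stricter filter (CPM above 1 in 3 libraries), all entries, DESeq2 1.42.0, limma-voom (limma 3.58.1), Abcb1a and Abcb1b summed, the 9 derived lines alone, the number as a block, and each derived line left out. The numbers 5 and 7 occur in primary and metastasis and 3 in CTC and metastasis. In the fixed block only these same-numbered lines inform the differences between groups. Deviations from group means of same-numbered lines correlated at 0.319 (5), 0.12 (7) and 0.406 (3), against a median of -0.0491 over 24 other pairs. The other pairs ran from -0.434 (CTC 6 with metastasis 3) to 0.506 (CTC 6 with metastasis 7). Primary 8 with CTC 6, at 0.430, also lay above every same-numbered pair, so these pairwise values alone do not single out the numbers. With the number as a random block, limma-voom estimated a correlation of 0.484 within a number. The number was taken as a possible pairing, not given by the labels, in the block alternatives only. The main tests took the lines as unpaired.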

Additional observations from a re-analysis of the deposited data

How the results depend on the processing

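Of the alternatives for the 7 tested genes, 542 between 2 groups kept the direction and the side of the threshold, 143 of any difference, which has no direction, kept the side, 19 turned the direction of a change that was not called, and 4 passed, all with DESeq2 (Abcb1a in 3 comparisons, Abcg2 in metastasis against primary). In metastasis against CTC, Cd44 was -0.03 and became 0.0635 with library size only, 0.00967 with upper quartile factors, 1.04 with the number as a fixed block and 0.13 as a random block, and ran from -0.40 to 0.18 when a line was left out. The fixed block rests in this comparison on CTC 3 and metastasis 3 alone. In CTC against primary the fixed block gave Cd44 -0.94, but these groups share no number and the fit has 1 residual degree of freedom. Ly6a in metastasis against primary gave -1.14 with limma-voom and -1.08 with the random block, and in metastasis against CTC -0.58 with the random block. With a line left out, Ly6a ran from -2.98 to 0.92 in metastasis against primary and from -1.89 to 2.01 in metastasis against CTC. In metastasis against CTC, Abcb1a ran from -0.38 to 0.0561, Cd24a from -0.37 to 0.15 and Procr from -0.36 to 0.33. The log2 changes of Abcb1a and Procr in metastasis against primary ran from -1.51 to -1.14 and from -1.15 to -0.69. The causes were not tested.

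The number of genes called was 0 in metastasis against primary, with 187 by DESeq2, 1 with the stricter filter, 1 with the random block and 0 to 1 with a line left out. It was 0 in CTC against primary, with 66 by DESeq2, and 0 for any difference, with 139 by DESeq2, 1 with the random block and 0 to 1 with a line left out. It was 1 in metastasis against CTC, with 28 by DESeq2, 0 for all entries, 0 without a filter, 0 with the fixed block and 0 to 1 with a line left out. It was 4 in derived against parental, with 673 by DESeq2, 42 for all entries, 24 by limma-voom, 19 with the random block, 1 with the stricter filter and 4 to 6 with a line left out. Of transcripts, 25 were called in derived against parental and 12 to 20 with a line left out. CTC against primary and any difference each called 0 transcripts, and 0 to 1 with a line left out. The pairing by number changed no call among the tested genes it could be fitted to. The fixed block leaves out Ly6a, and derived against parental has the random block only. The main fit had called none of these genes, and the fixed block leaves 1 residual degree of freedom. That block could thus hardly have changed a call. With the fixed block Abcb1b was -1.12 in metastasis against primary, -0.97 in CTC against primary and -0.15 in metastasis against CTC. Depth limits Aldh1a1, Aldh1a3, Prom1 and Ly6a, whose levels rest on at most 23 counts, and the start of Abcg2 in the 5 lines with 8 to 35 counts.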
